A study of Mus musculus with 2 samples.

Results

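The 10 genes described here encode the closest relatives of HLF (hepatic leukemia factor) among the basic leucine zipper (bZIP) transcription factors. They were listed by family and not by any measured value, although earlier results of these data were known when the list was made. They are the PAR bZIP genes Hlf, Dbp and Tef, the gene Nfil3, and the C/EBP genes Cebpa, Cebpb, Cebpd, Cebpe, Cebpg and Ddit3. All 10 were matched by symbol among 21523 protein-coding genes. The series has 2 anti-FLAG chromatin immunoprecipitation sequencing libraries (n = 1 per group) from cultured Lin-Sca-1+c-Kit+ cells, a mouse population enriched for blood stem and progenitor cells. Both came from C57BL/6 animals of 8 to 10 weeks, with blood given as the tissue, and both cultures received SCF, IL-7, Flt3L and IL-3 for 5 days. One culture was infected with a MigR1 retrovirus encoding 3xFLAG-HLF, so the profiled protein was introduced by the vector in cells that keep their own Hlf gene. The other received the empty MigR1 vector, and this library was not analysed here. The FLAG-HLF list holds 3153 peaks of 400 bp on mm10 with no height or p-value, so the read depth and the strength of single peaks are unknown. With 1 library there is no replicate error for any peak, and a peak list has no expression values with which the sorted cell type could be checked.

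PAR bZIP proteins (HLF, DBP and TEF) are activators that bind palindromic D-box sites as dimers, and their zippers allow them to pair with one another. NFIL3, also called E4BP4, binds the same sites and mostly represses, and it is known for its part in the circadian clock and in the development of natural killer and other innate lymphoid cells. C/EBP proteins bind a related palindrome. C/EBP alpha, beta and epsilon are regulators of granulocyte and macrophage development, C/EBP delta is induced in inflammation, C/EBP gamma lacks a classical activation domain, and DDIT3 (CHOP) is a stress-induced member whose altered basic region limits binding to the classical site.

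Tef and Nfil3 each had 1 peak centre in the gene body, and the other 8 genes had none. Among all protein-coding genes, 6.94% had a peak centre in the body. The same 2 genes were the only members whose body, extended by 20 kb on each side, held a peak centre, against 15.3% of all protein-coding genes. Within 100 kb 8 of the 10 had a peak, against 36.9% of all protein-coding genes, and Cebpa and Ddit3 had none. The members are short genes, with a median body of 5.3 kb against 17.4 kb for all protein-coding genes. Among the 16956 protein-coding genes no longer than Hlf, the longest member at 54.4 kb, the shares were 12.9% within 20 kb and 35.8% within 100 kb. This limit caps gene length and does not match it to that of the members.

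**Figure D1:**
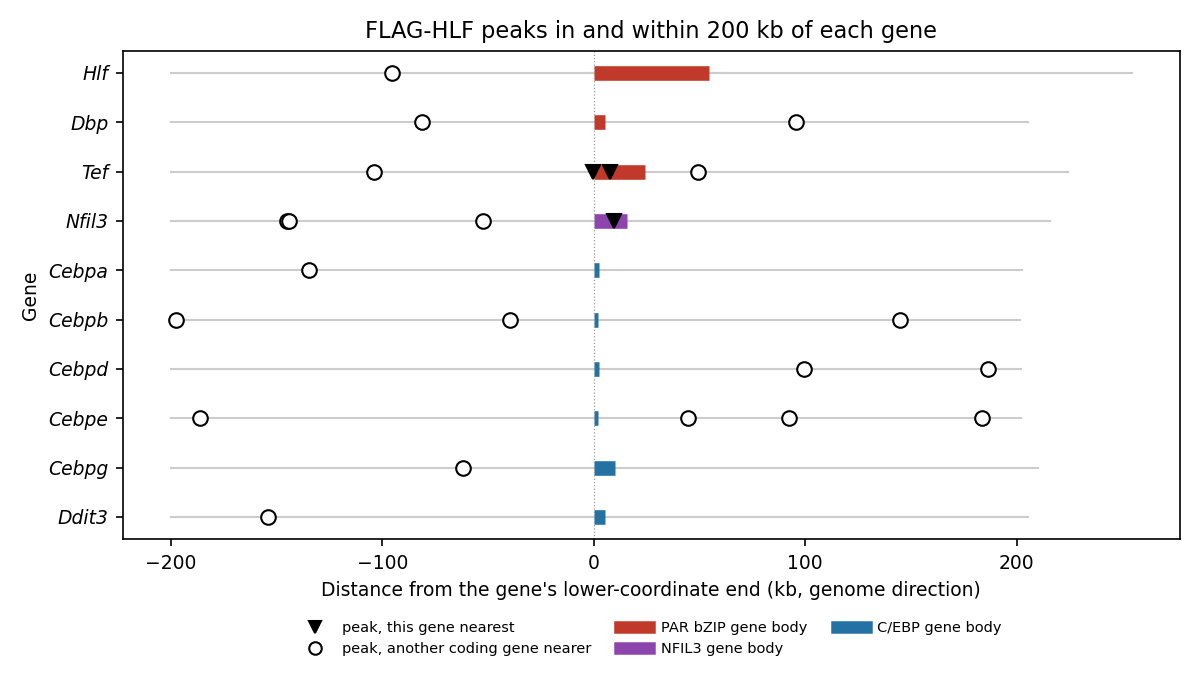
Each row is 1 gene, drawn to scale in kb from its lower-coordinate end in genome direction, with the body as a coloured bar (drawn at least 2 kb wide) and the searched region as a grey line. Filled triangles are peak centres whose nearest protein-coding gene is the gene of that row, seen only at Tef (2 peaks) and Nfil3 (1 peak), and open circles are peaks nearer to, or inside, another protein-coding gene.

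Tef was the member with the most peaks close to it. It encodes thyrotroph embryonic factor, the PAR bZIP paralogue first known from the pituitary. The gene (gene ID 21685) lies on the forward strand at chromosome 15, 81802673 to 81826863 (24.2 kb), and the RefSeq start windows list 2 transcription starts, at 81802673 and 81811414. The first peak, at chromosome 15, 81802329 to 81802728, was centred 145 bp before the first start. It covered the whole 300 bp window from 250 bases before to 50 bases after that start, and its centre also lay in Gm17597, a long noncoding RNA gene beside it. The second peak, at 81810031 to 81810430, was centred 7.56 kb downstream of the first start and 1.18 kb upstream of the second. Each of the 2 listed starts thus had a peak upstream of it, the second at a greater distance. For both peaks Tef was the nearest protein-coding gene. A count of 2 or more peaks in the body extended by 20 kb was reached by 2.72% of all protein-coding genes.

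Part of the sequence under the first Tef peak is shown because it comes from the only listed start window of a member that a peak touched. It is the 250 bases before the first start (GRCm38.p6, chr15:81802423-81802672, forward strand, from RefSeq), 5′ to 3′. Capitals mark the closest approach to a PAR site.
Tef: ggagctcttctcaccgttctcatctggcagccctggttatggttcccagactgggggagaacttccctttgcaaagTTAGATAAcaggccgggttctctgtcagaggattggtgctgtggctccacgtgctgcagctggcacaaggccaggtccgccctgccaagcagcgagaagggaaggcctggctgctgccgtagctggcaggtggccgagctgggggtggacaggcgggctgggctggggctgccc

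The start windows were searched on both strands for exact 8-letter sites. The PAR sites were TTACGTAA and TTATGTAA, the C/EBP palindrome TTGCGCAA, and the hybrid of the PAR and C/EBP half-sites TTGCGTAA. The C/EBP variants were TTGCATAA, TTGCACAA and TTGCTCAA, and the cAMP response element (CRE), the site of CREB and ATF proteins, was TGACGTCA. No site of this set is a part of another. The Tef window under the peak held none of them. Its capitals, TTAGATAA, differ from TTACATAA, the reverse complement of TTATGTAA, by the substitution C4G, counted from the 5′ end of the site. These 8 bases end 22 bp before the peak centre. A PAR site with at most 1 mismatch was found in 17.4% of all 32851 start windows, so such a match is common. The part of the first Tef peak outside this window, and the whole of the second Tef peak and of the Nfil3 peak, were not read, as no genome sequence was used here.

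The third peak near Tef, at chromosome 15, 81851516 to 81851915, lay 24.9 kb beyond the 3′ end of the gene and inside Tob2, which encodes an antiproliferative protein of the BTG/Tob family. The 3 peak centres spanned 49.2 kb, with gaps of 7.7 and 41.5 kb. Groups of at least 3 peaks within such a span held 244 of the 3153 peaks, or 7.74%. Another peak lay just outside the 100 kb limit, 104 kb before the first Tef start, where Chadl was the nearest protein-coding gene at 1.38 kb.

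Nfil3 (gene ID 18030; chromosome 13, 52967209 to 52982878, reverse strand, 15.7 kb) had 1 peak inside the gene, at 52976701 to 52977100. Its centre lay 5.98 kb from the 5′ end of the annotated gene and 4.14 kb downstream of the listed transcription start at 52981039. No other annotated gene, coding or noncoding, contained that centre. A second peak, 52.6 kb beyond the 3′ end, lay inside Auh, which encodes an RNA-binding enoyl-CoA hydratase, and was 15.1 kb from the nearer end of Auh. A further pair of peaks lay 144 and 145 kb beyond the 3′ end, with Auh again the nearest protein-coding gene at 12.1 and 12.8 kb. All 3 outer peaks therefore lay on the 3′ side of Nfil3, and none lay within 200 kb upstream.

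**Figure D2:**
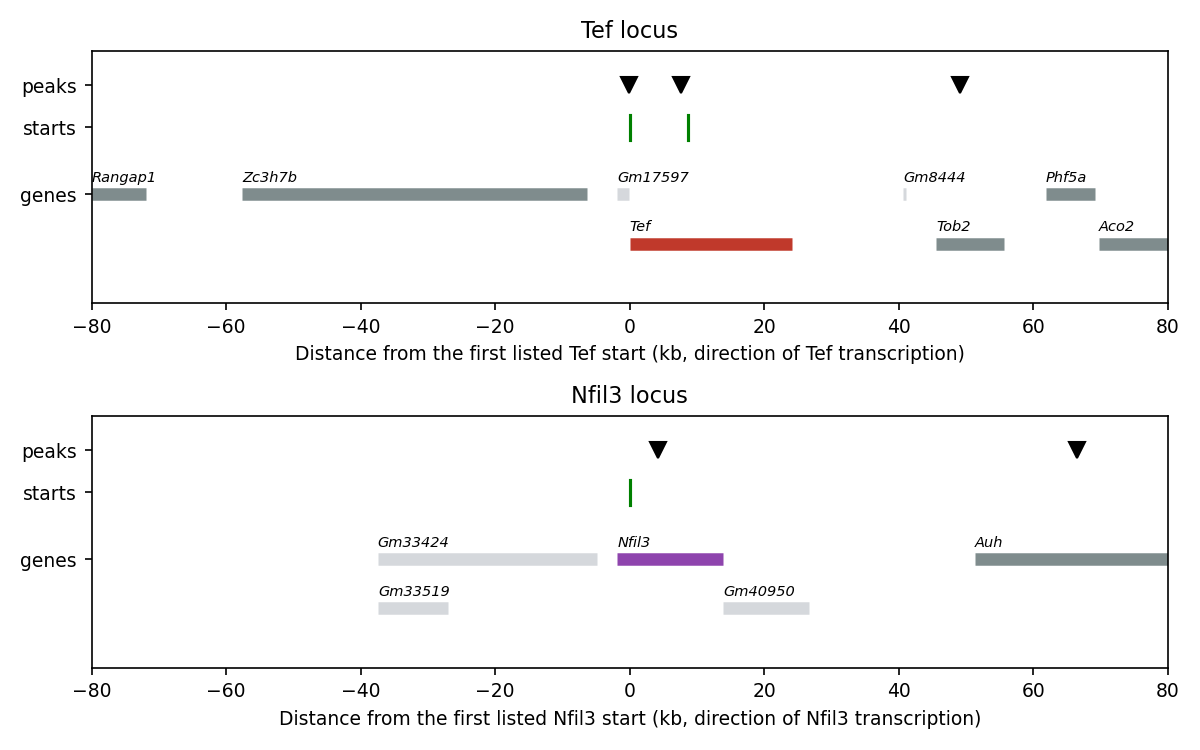
The Tef locus (top) and the Nfil3 locus (bottom) are drawn in kb from the first listed start, in the direction of transcription, with peak centres as black triangles and listed starts as green lines. The named gene is coloured, other protein-coding genes are dark grey and noncoding genes or pseudogenes light grey; at Tef the inner peaks sit at -0.145 and 7.56 kb, and at Nfil3 the inner peak sits at 4.14 kb.

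Hlf itself (gene ID 217082; chromosome 11, 90336535 to 90390917, reverse strand) had a single peak within 200 kb. This peak, at 90240721 to 90241120, lay 95.6 kb beyond the 3′ end and 150 kb from the listed start. Mmd, encoding a monocyte-to-macrophage differentiation-associated membrane protein, lay between the peak and Hlf and was the nearest protein-coding gene, at 8.36 kb. Of all protein-coding genes, 35.9% had a peak as near as Hlf or nearer. The Hlf start window, which no peak overlapped, held a CRE 9 to 2 bases before the start, the only exact match in the 9 start windows of the 8 members that had one. A CRE occurred in 1.79% of all start windows. It is in capitals in the last bases before the start (GRCm38.p6, chr11:90390918-90390946, reverse strand, from RefSeq).
Hlf: tcggcgcgcggtgcgggcccTGACGTCAc

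Dbp (gene ID 13170; chromosome 7, 45705100 to 45710203, forward strand) encodes albumin D-site binding protein, a strongly rhythmic output factor of the clock. It had 2 peaks within 100 kb, 1 on each side, and neither was close. One lay 81.4 kb upstream inside Izumo1, a sperm-egg fusion gene, at 45623501 to 45623900, with 7 protein-coding genes lying wholly or partly in between. The other lay 90.4 kb beyond the 3′ end inside Lmtk3, a kinase gene, at 45800450 to 45800849, with 6 in between. The Dbp region is dense, with 16 other protein-coding genes in or within 100 kb, the highest number among the members. Of the 3 PAR bZIP genes, Tef alone thus had a peak within 20 kb.

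No peak centre lay inside or within 20 kb of any of the 6 C/EBP genes. Cebpb (gene ID 12608; chromosome 2, 167688915 to 167690432, forward strand), which acts in emergency granulopoiesis and macrophages, had the nearest one, 39.5 kb upstream at 167649218 to 167649617. That peak lay inside Tmem189, and 21.5% of all protein-coding genes had a peak as near or nearer. Beyond 100 kb a Cebpb peak lay 143 kb past the 3′ end with no protein-coding gene in between, although Ptpn1, a tyrosine phosphatase gene, was nearer to it at 97.0 kb. Another lay 198 kb upstream inside Spata2.

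Cebpe (gene ID 110794; chromosome 14, 54710363 to 54712174) encodes the factor of late granulocyte maturation. It had 2 peaks within 100 kb, both toward higher coordinates. One lay 42.5 kb away inside Slc7a8, an amino acid transporter gene, at 54754520 to 54754919, and the other 90.5 kb away inside Rnf212b at 54802470 to 54802869. At 182 and 186 kb on either side there were further peaks, the former 254 bp from Pabpn1, the gene of a nuclear poly(A)-binding protein. The start table lists neither Cebpe nor Cebpd, so their sides are given by coordinate.

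Cebpa (gene ID 12606; chromosome 7, 35119293 to 35121928, forward strand) and Cebpg (gene ID 12611; chromosome 7, 35046422 to 35056566, reverse strand) are neighbours, and they shared a single peak within 200 kb. It lay at 34984476 to 34984875 inside Pepd, the gene of the dipeptidase prolidase, 60.0 kb from the nearer end of that gene. Its centre also lay inside the long noncoding RNA gene Gm35534. The distance was 61.7 kb from the 3′ end of Cebpg and 135 kb from the 5′ end of Cebpa. C/EBP alpha is required for the formation of granulocyte and monocyte progenitors. Of all protein-coding genes, 43.3% had a peak as near as Cebpa or nearer.

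Cebpd (gene ID 12609; chromosome 16, 15887286 to 15889545) had its nearest peak at 97.1 kb, at 15986409 to 15986808, and a second at 184 kb, both inside Spidr, a DNA repair scaffold gene. Ddit3 (gene ID 13198; chromosome 10, 127290793 to 127296291, forward strand) was the member farthest from a peak. Its nearest lay 154 kb upstream at 127136465 to 127136864, with 8 protein-coding genes between and Os9 nearest at 15.5 kb. For Ddit3, 46.5% of all protein-coding genes had a peak as near or nearer. In order of distance the members without a peak in the body were Cebpb, Cebpe, Cebpg, Dbp, Hlf, Cebpd, Cebpa and Ddit3, and Hlf and Cebpd lay within 5 kb of the 100 kb limit.

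Most of the peaks counted at 100 kb were nearer to some other gene. The 8 members shared 13 distinct peaks within 100 kb. For 3 of these, both inner Tef peaks and the inner Nfil3 peak, a member was the nearest protein-coding gene. The other 10 were nearer to another protein-coding gene, and 9 of them lay inside one. When each peak counted only for its nearest protein-coding gene, 2 of the 10 members had a peak within 100 kb, against 11.3% of all protein-coding genes, and 2 had one within 20 kb, against 9.94%. The median distance to the nearest peak was 71.6 kb for the members (range 0 to 154 kb) and 179 kb for all protein-coding genes (middle 50%, 51.3 to 556 kb). The members with 100 kb on each side covered 1.986 Mb and held 6.55 peaks per Mb (exact Poisson 95% interval 3.49 to 11.2). The same span around all protein-coding genes held 1.61 per Mb (1.55 to 1.67). With 20 kb on each side the members held 3 peaks, or 5.73 per Mb (1.18 to 16.8), an interval that includes the 1.8 per Mb (1.73 to 1.87) around all protein-coding genes. These intervals cover counting error only and treat peaks as independent, and the members had 1 (Nfil3) to 16 (Dbp) other protein-coding genes in or within 100 kb, a difference in gene density whose part in these counts was not tested. No test was made of the list. The members were chosen with earlier results of these data known, so neither interval can serve as a test of enrichment at them.

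**Figure D3:**
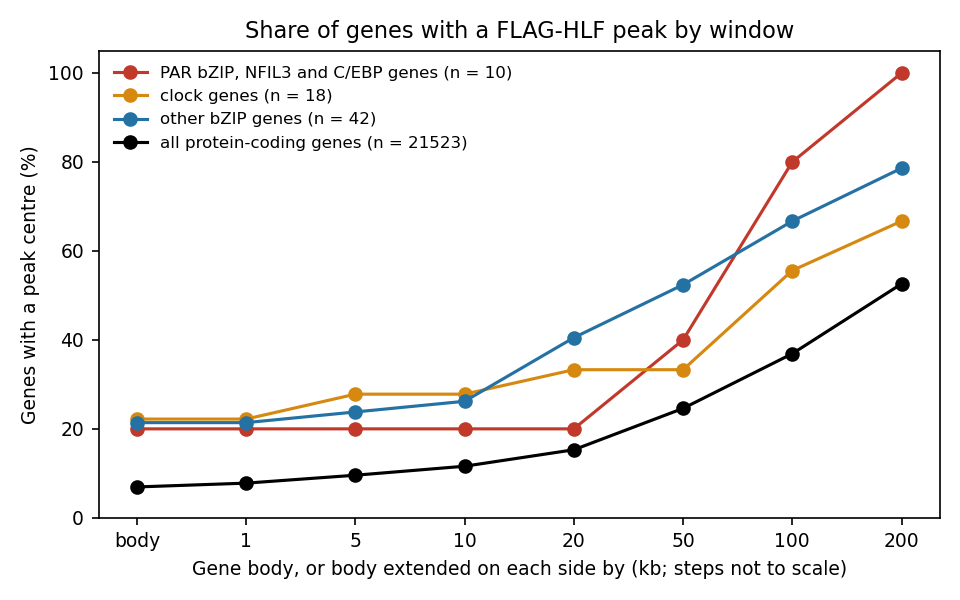
The share of genes with at least 1 peak centre (vertical axis, %) is plotted against the gene body and 7 extensions of it on each side (horizontal axis, kb, steps not to scale) for the 10 members, 18 clock genes, 42 other bZIP genes and all protein-coding genes. The members stay at 20% from the body to 20 kb and reach 40% at 50 kb, 80% at 100 kb and 100% at 200 kb, where all protein-coding genes reach 52.6%.

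Related genes from 2 lists are given for comparison. Of 18 core and accessory clock genes, some of them known to be driven through D-box sites by these factors, 6 had a peak inside or within 20 kb and 10 within 100 kb. The 6 were Per1 with 3 peaks, Per2 and Rora with 2 each, and Nr1d2, Bhlhe40 and Nr1d1 with 1 each. The peak nearest to a listed Rora start was 381 kb from it, and Nr1d1 was not the nearest protein-coding gene of any peak within 100 kb. Of 42 genes of other bZIP families (AP-1, ATF, CREB, MAF, CNC and others), 17 had a peak inside or within 20 kb and 28 within 100 kb. They were Atf3, Nfe2l2, Bach2, Mafg, Atf4, Nfe2, Fosl1, Creb5, Fos, Maff, Creb1, Nrl, Xbp1 and Jdp2 with 1 peak each and Fosl2, Bach1 and Atf7 with 2 each. For Bach2 and Creb5 the peak nearest to a listed start was 158 and 135 kb from it. Within 20 kb the shares were 20% for the HLF relatives, 33.3% for the clock list and 40.5% for the other bZIP list, against 15.3% of all protein-coding genes. Within 100 kb they were 80%, 55.6% and 66.7%, against 36.9%. These shares count every gene in reach of a peak. With each peak counted only for its nearest protein-coding gene, 2 of the 10 members kept one within 100 kb. In the clock list Per1, Per2, Nr1d2, Rora, Bhlhe40 and Arntl did. In the other bZIP list it was the genes with a peak within 20 kb, except Maff and Nrl. The HLF relatives then no longer had the highest share of these lists. The median gene body was 36.4 kb in the clock list, 10.8 kb in the other bZIP list and 5.3 kb for the HLF relatives. It was 17.4 kb for all protein-coding genes. The differences between lists were not tested, nor was the part of gene length in them. Among the start windows listed for those 60 genes and the members, a peak overlapped only those of Tef, Per1 and Atf3; some of these genes, Per2 and Nfe2 among them, have no listed window.

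The Per1 window is set beside that of Tef because a peak overlaps it and it does hold one of the searched sites. Among the other list genes, windows of Per3 and Jdp2 held a PAR site and windows of Jund and Maff a C/EBP variant. Windows of Creb5 and Maff held a CRE. No peak overlapped any of those windows. The Atf3 window that a peak overlapped held none of the searched sites. PER1 is a repressor of the clock. A peak at chromosome 11, 69098730 to 69099129 was centred 20 bp from the listed Per1 start at 69098949 and covered 269 bases of the window. The C/EBP variant TTATGCAA, the reverse complement of TTGCATAA, starts 24 bases before the start and is in capitals (GRCm38.p6, chr11:69098905-69098948, forward strand, from RefSeq).
Per1: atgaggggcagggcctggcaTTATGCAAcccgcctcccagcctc

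The same sites were counted in all start windows that lay entirely inside a peak. There were 62 such windows, the Tef window among them. Each window was counted singly, so a gene or peak can enter more than once, and the intervals treat windows as independent. A PAR site was present in 7 of the 62, or 11.3% (exact Clopper-Pearson 95% interval 4.66 to 21.9%), against 1.06% of all 32851 windows. TTATGTAA was present in 6 (9.68%, against 0.938%) and the palindrome TTACGTAA in 1 (1.61%, against 0.119%). A C/EBP variant was present in 10, or 16.1% (8.02 to 27.7%), against 2.67%. The C/EBP palindrome was present in 3, or 4.84% (1.01 to 13.5%), against 0.183%. The hybrid site was present in 5, or 8.06% (2.67 to 17.8%), against 0.167%. Any PAR or C/EBP site was present in 22, or 35.5% (23.7 to 48.7%), against 3.99%. The CRE was present in 1, or 1.61% (0.0408 to 8.66%), against 1.79%. The Tef window was thus one of the 40 without an exact PAR or C/EBP site and one of the 42 with a PAR site at 1 mismatch or fewer (67.7%, 54.7 to 79.1%). None of the 9 member windows held an exact PAR or C/EBP site. Their GC content was high, with a median of 67.3% (range 60.3 to 81.7%) against 52.7% over all start windows and 53.2% over the 62 inside peaks, and its part in the counts of sites was not tested.

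**Figure D4:**
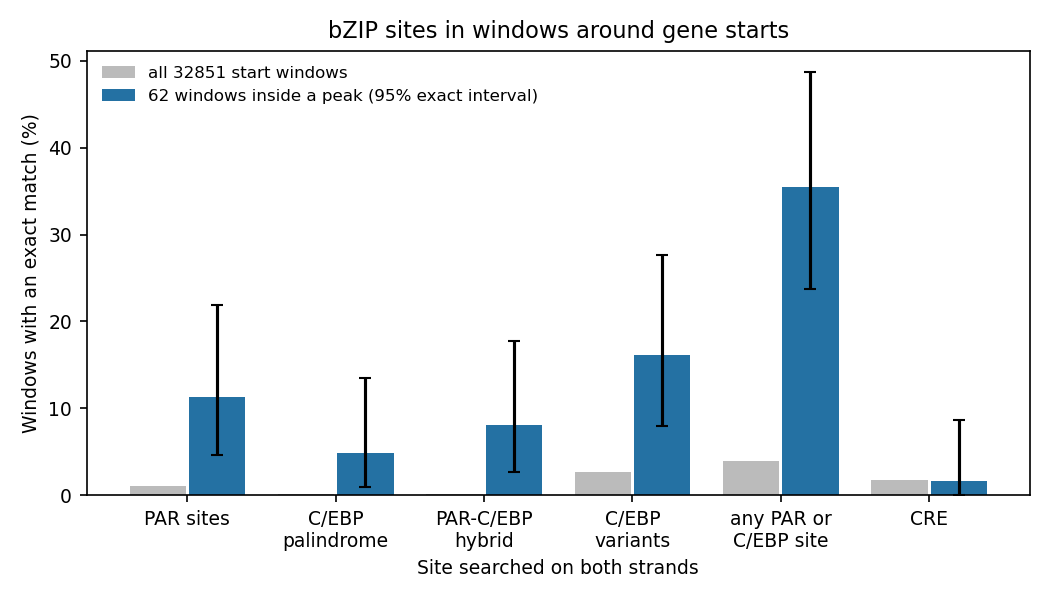
Bars give the share of start windows (vertical axis, %) with an exact match to each site group (horizontal axis), for all 32851 windows (grey) and the 62 windows inside a peak (blue, with exact 95% intervals). The blue bars stand above the grey for every PAR and C/EBP group, with 35.5% against 3.99% for any such site, and the CRE bars are level at 1.61% and 1.79%.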

How the data were processed

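The measurement is anti-FLAG ChIP-seq of 2 libraries, of which the FLAG-HLF peak list was used. The submitters' processing notes name mm10 as build and list MACS2 2.0.10 beside Bowtie2 2.0.6, stating no role. How peaks were called and thresholded, whether the empty-vector library entered, and how each interval came to 400 bp is not given in the sources used here. The deposited file holds chromosome, start and end in bp, with no score or other value, so the depth is unknown.

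A peak's position was its BED start plus 200. Distances ran from that centre to the gene body in the RefSeq table of GRCm38.p6 (same coordinates as mm10), of which 49214 of 49997 rows on the autosomes and X, with starts above 3 Mb, were used. Strand and starts came from RefSeq start windows, which list 8 of the 10 members and 17274 protein-coding genes. The table gives no exons, so exons and introns were not assigned. Counts used Python 3.11.15, pandas 2.3.3 and scipy 1.17.1, and the distance code was tested on simulated data. No peak height, replicate or control could be compared, so counts are set beside the share of all protein-coding genes with no test. The members and lists were chosen with earlier results of these data known. All 10 members are named, with the protein-coding gene nearest to each peak within 100 kb of a member and list genes with a peak within 20 kb. Nearest genes of peaks at 100 to 200 kb, and genes overlapping a peak or lying between it and a member, were added after their values were seen. So were list genes named for a searched site in a start window or as the nearest gene of a peak. Protein sequences were not used, so the planned protein alignment was not run.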

Additional observations from a re-analysis of the deposited data

How the results depend on the processing

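The count of members with a peak in the body, 2, was the same when any overlap of the 400 bp interval replaced the centre. The count within 20 kb stayed at 2 with interval overlap, with a 10 kb window, with the nearest protein-coding gene only, and measured from listed starts (8 members have one), and it became 4 with a 50 kb window. The count within 100 kb stayed at 8 with interval overlap and was 10 at 200 kb, but it fell to 4 at 50 kb and to 2 with the nearest protein-coding gene only. A smaller window or fewer genes per peak is the cause by construction. Merging peaks within 1 kb, which removed 23 of 3153, moved none of the 20 counts of peaks per member. Limiting the background to genes no longer than Hlf and allowing 1 mismatch in the PAR site were chosen after seeing the data. A stricter peak threshold was not run, as the list has no score, and neither was local protein alignment, since protein sequences were not used. A paired fit or a left-out replicate could not be had from 1 library.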
